A study of Mus musculus with 4 samples.

Results

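The genes described are 35 imprinted genes followed in mouse brain at embryonic day 13, chosen by name from the known mouse imprinted clusters, with earlier results of these data known. Of these, 34 were listed in both deposited tables, among 19500 genes listed in both, and all 34 passed the filter on low counts. The RNA of Phlda2, a growth-restraining gene of the placenta, was not analysed here. The study compared 2 brain samples with floxed Wt1 alleles (Wt1 fl/fl, also labelled WT and called Wt1_flfl) with 2 samples labelled Wt1CKO, a conditional knockout of the transcription factor gene Wt1 (called Wt1_CKO). All 4 were on a C57BL/6 background, and poly(A) RNA was sequenced. The labels name neither the Cre line, nor the cells in which it acts, nor the brain region taken, nor whether a sample is a single embryo or a pool, so p-values below measure only the spread between these samples. Wt1 itself was not analysed here, so the labels were not checked on the targeted gene.

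At an imprinted locus, the copies inherited from the mother and the father carry different DNA methylation at a control region, so that a single parental copy gives most of the RNA. Such genes lie in clusters that share a control region, often with a long non-coding RNA read from one parental chromosome and protein-coding genes read from the other. Many act on growth, and in the brain several are abundant in the developing hypothalamus, the region of hormone control and feeding behaviour. Counts per gene sum both parental copies, so allelic expression was not measured.

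The libraries held 16219310 to 17704698 counts in listed genes. Wt1_flfl replicate 1 stood apart in a ribosomal RNA gene, CT010467.1, with 4578 CPM (its count scaled to a library of 1000000) against 178.1 to 446.3 CPM in the others. Wt1_CKO replicate 1 held only 4 counts of the female-specific RNA Xist, and the other 3 libraries held 13086 to 16472. The tissue label was checked on markers of brain cells: those of neurons summed to 5367 to 6300 CPM and those of neural progenitors to 3414 to 3830 CPM per library. Apart from CT010467.1, all CPM are scaled by TMM, edgeR's correction for library composition. Values are listed in the order Wt1_flfl replicate 1, Wt1_flfl replicate 2, Wt1_CKO replicate 1 and Wt1_CKO replicate 2.

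The first question was how abundant these genes are in the embryonic brain. Nnat, which encodes a small membrane protein of young neurons and is read from the paternal copy, stood above all other imprinted genes, with 3889, 4869, 3437 and 3621 CPM, and ranked 6 among all 15933 tested genes. Per kilobase of exon its mean level was 2162 CPM, followed by 173.5 CPM for Ndn, 62.7 CPM for Mest, 52.1 CPM for Meg3 and 45.5 CPM for Peg13. The lowest mean levels per kilobase were 0.210 CPM for Kcnq1ot1, 0.694 CPM for Rtl1 and 0.977 CPM for Ddc. The value of Kcnq1ot1 is uncertain, since its exon length of 93.09 kilobases comes from GENCODE vM21, where the gene has another position. The 34 genes together made up 7838, 10950 and 7391 CPM in the first 3 libraries and 8165 CPM in Wt1_CKO replicate 2. Without Nnat the sums were 3949, 6081, 3953 and 4544 CPM, so Wt1_flfl replicate 2 was the highest with and without it.

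**Figure D1:**
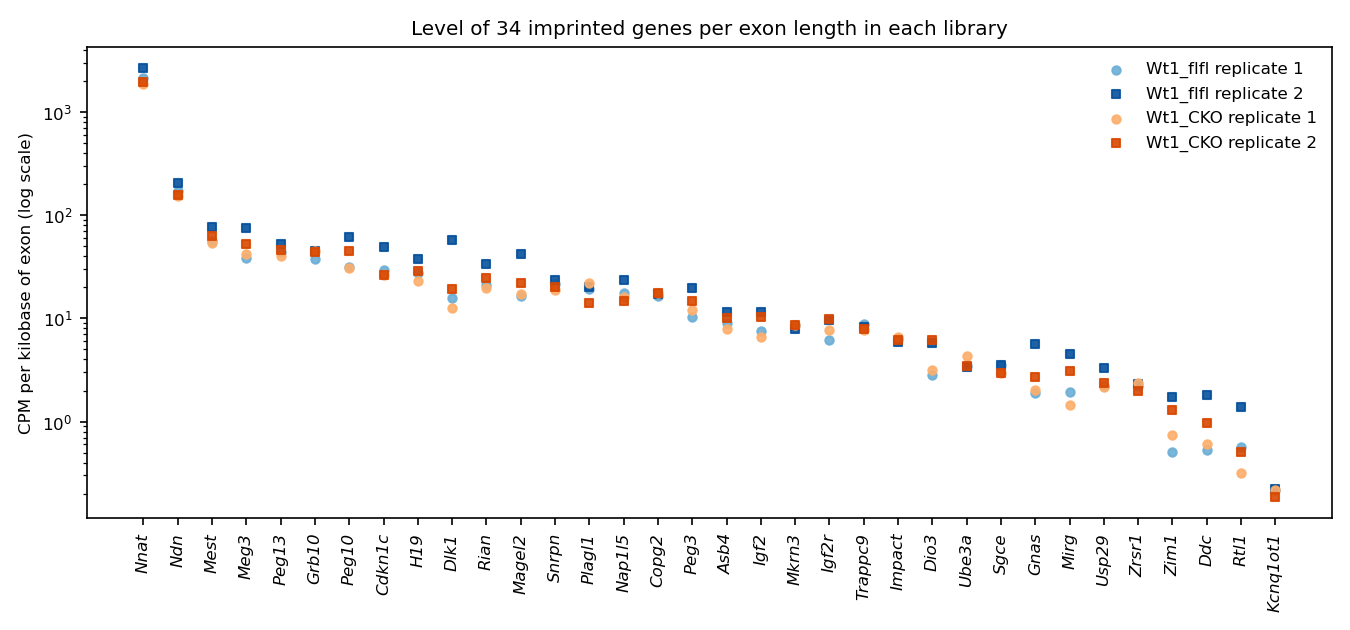
Level of the 34 imprinted genes in each library, as CPM per kilobase of exon on a log axis, with genes ordered by their mean. Circles are replicate 1 and squares replicate 2, blue is Wt1_flfl and orange Wt1_CKO. Nnat lies far above the rest, and the dark blue squares of Wt1_flfl replicate 2 lie on top for Dlk1, Magel2, Gnas and Ddc.

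A single library, Wt1_flfl replicate 2, carried the highest level of most of these genes. It was the highest of the 4 libraries for 23 of 34 imprinted genes (67.6%), against 26.9% of all tested genes. Its log2 CPM exceeded the mean of the other 3 libraries by at least 0.5 for 17 of the 34 (50%), against 7.68% of all tested genes. The excess was 1.87 on the log2 scale for Dlk1, 1.59 for Rtl1, 1.37 for both Gnas and Ddc, 1.20 for Magel2, 1.14 for Mirg and 1.13 for Zim1. At the other end, Mkrn3, Impact and Ube3a had their lowest level in that library. Wt1_flfl replicate 2 was the highest library for 7 of 11 genes classed as maternally expressed and 14 of 20 classed as paternally expressed. These classes were not checked in these samples.

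**Figure D2:**
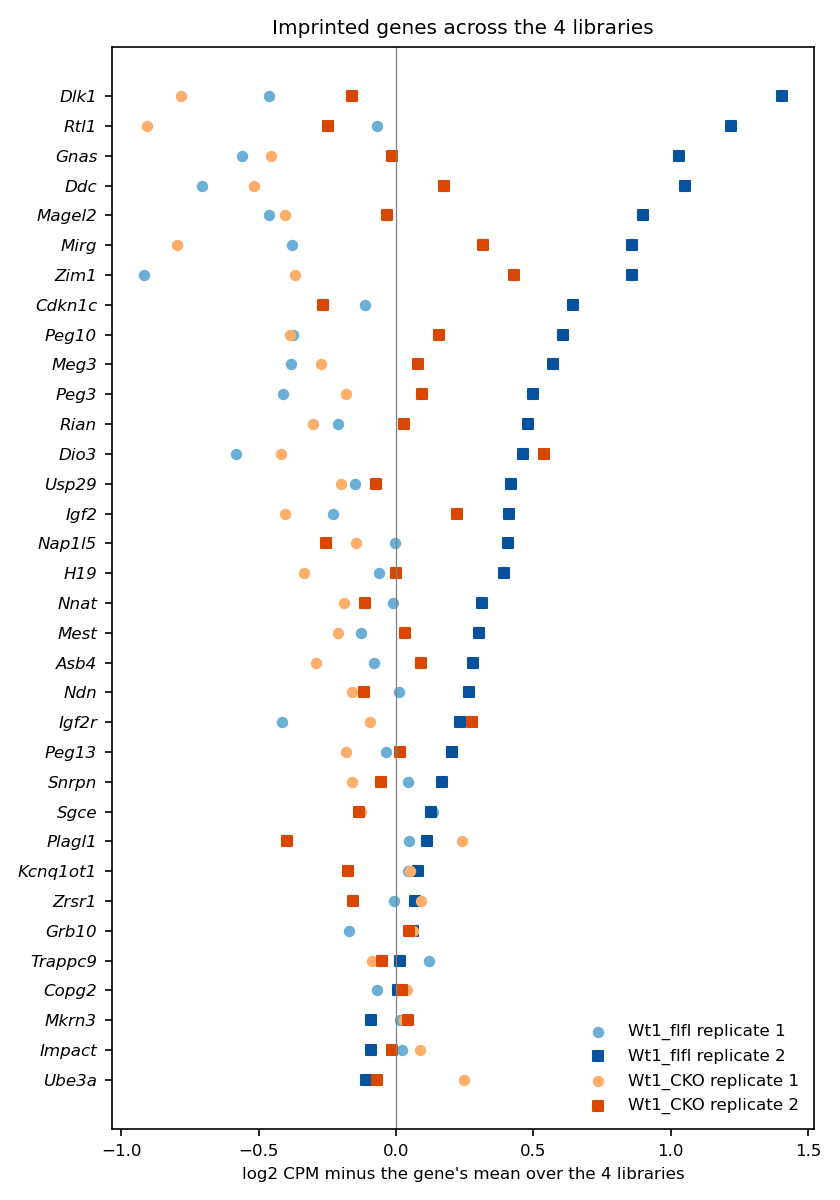
Each imprinted gene's log2 CPM in the 4 libraries minus its mean over them, ordered by the value in Wt1_flfl replicate 2. Circles are replicate 1 and squares replicate 2, blue is Wt1_flfl and orange Wt1_CKO. The dark blue squares of Wt1_flfl replicate 2 lie rightmost for 23 of 34 genes, and at the bottom Mkrn3, Impact and Ube3a show them on the left.

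The second question was whether imprinted transcripts differ between Wt1_CKO and Wt1_flfl brain. None of the 34 genes passed edgeR's quasi-likelihood test at a Benjamini-Hochberg adjusted p of 0.05, against 1 of 15933 tested genes (0.00628%), and DESeq2 called 0 of the 34 as well. With replicate number as a further term edgeR called 1 of the 34, Dlk1, against 42 of 15933 genes. In the fit without that term, 4 had an unadjusted edgeR p under 0.05, Nnat, Cdkn1c, Nap1l5 and Rtl1, all with lower levels in Wt1_CKO, against 1.56% of all genes. By fitted fold change, 27 were lower and 7 higher in Wt1_CKO, with a median log2 fold change of -0.21 against 0.0066 for all tested genes. Both Wt1_CKO libraries lay below both Wt1_flfl libraries for 8 of 34 (23.5%), against 13.5% of all genes. They lay above both for 2 of 34 (5.88%), Copg2 and Mkrn3, against 13.4%.

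The lower levels lay mostly in the second pair of libraries. Between the replicate 2 libraries the median log2 fold change of the imprinted genes was -0.39, and 28 of 34 were lower in Wt1_CKO. Between the replicate 1 libraries the median was -0.03, and 18 of 34 were lower. A fall of at least 0.5 on the log2 scale was seen for 9 of 34 genes (26.5%) between the replicate 2 libraries, against 7.16% of all genes. Between the replicate 1 libraries it was seen for 1 of 34 (2.94%), Rtl1, against 5.92%. Without Wt1_flfl replicate 2 the median over the imprinted genes turned to 0.02. Without Wt1_flfl replicate 1, edgeR called Cdkn1c, Dlk1, Gnas, Magel2 and Rtl1 lower in Wt1_CKO, 5 of 34, against 0.439% of all genes. In that fit Wt1_flfl is a single library, assumed to vary like the Wt1_CKO group, and it is the library in which these 5 genes were highest. The authors' deposited table for the replicate 2 libraries marks 3 of the 34 (8.82%) as significant, Dlk1, Gnas and Rtl1, all lower in Wt1_CKO, against 3.19% of its genes. The authors' deposited table for the replicate 1 libraries marks 0 of the 34, against 3.2%. Each of these tables compares 1 library with 1 library. Their mark does not follow the adjusted p alone. Between the replicate 2 libraries Magel2 (log2 fold change -0.92) and Cdkn1c (-0.90) were not marked. Their adjusted p in that table nevertheless lay below that of Rtl1 (-1.46).

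**Figure D3:**
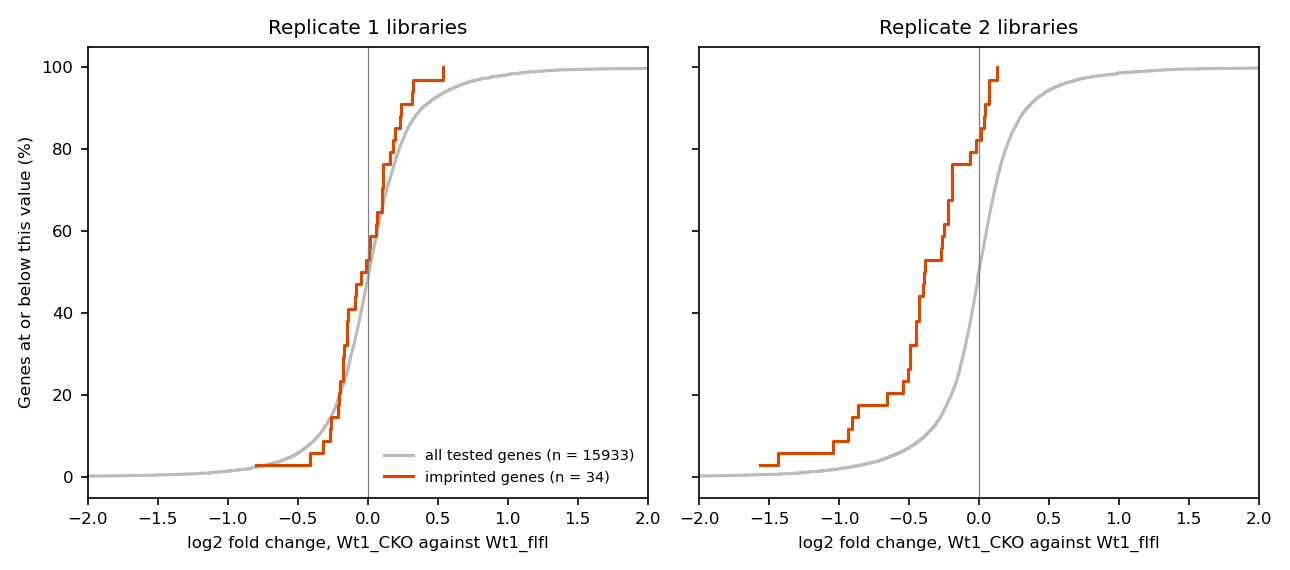
Cumulative share of genes (percent) at or below each log2 fold change of Wt1_CKO against Wt1_flfl, left between the replicate 1 libraries and right between the replicate 2 libraries. Orange is the 34 imprinted genes and grey all 15933 tested genes. The orange curve crosses the grey one near 0 on the left, with a median of -0.03, and lies to its left on the right panel, with a median of -0.39.

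The third question was how these genes differ between the samples numbered 2 and those numbered 1, whatever the genotype. edgeR called 5 of 34 imprinted genes (14.7%) at an adjusted p of 0.05, against 1.96% of all tested genes, and all 5 were higher in the replicate 2 libraries: Peg10, Igf2, Mirg, Dio3 and Zim1. By fitted fold change 26 were higher and 8 lower in replicate 2, with a median log2 fold change of 0.37 against -0.0050 for all genes. Both replicate 2 libraries lay above both replicate 1 libraries for 18 of 34 (52.9%), against 24.7% of all genes, and below both for 2 of 34 (5.88%), against 25%. The difference had the same sign in each genotype, with a median of 0.44 between the Wt1_flfl libraries and 0.22 between the Wt1_CKO libraries. The calls depended on single libraries. Without Wt1_flfl replicate 1 and without Wt1_CKO replicate 1 edgeR called 0 of the 34, against 0.793% and 0.428% of all genes. Without Wt1_flfl replicate 2 it called 7 of 34, against 2.65%, namely the same 5 with Igf2r also higher and Plagl1 lower in replicate 2. Without Wt1_CKO replicate 2 it called 19 of 34, against 5.66%. Each of these fits left 1 group as a single library, assumed to vary like the other group. In the last fit replicate 2 was Wt1_flfl replicate 2 alone, the library in which 23 of the 34 genes were highest. Its calls therefore cannot separate replicate number from that library. The labels do not say what the numbers 1 and 2 stand for.

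All 6 genes of the cluster on chromosome 12 between Dlk1 and Dio3 had a higher fitted level in replicate 2, against 7853 of 15933 tested genes. Their median log2 fold change was 1.05. Of the 6 genes 2, Mirg and Dio3, passed the test, against 1.96% of all tested genes. The cluster holds the paternally expressed genes Dlk1, Rtl1 and Dio3 and the maternally expressed long non-coding RNAs Meg3, Rian and Mirg, whose introns and exons hold microRNAs and small nucleolar RNAs. Its 6 genes summed to 1195, 2353, 1205 and 1564 CPM, so both replicate 2 libraries lay above both replicate 1 libraries, with Wt1_flfl replicate 2 on top. The sequences before the starts of Dlk1 and Meg3 are shown because these genes are read from opposite parental chromosomes and yet had their highest level in the same library. Each line gives the 250 bases before the start in the direction of transcription, from RefSeq on GRCm38.p6, with every CpG, the dinucleotide that is methylated in mammals, in capitals. The Dlk1 stretch (chr12:109452573-109452822, plus strand) has 8 CpG, and the Meg3 stretch (chr12:109540746-109540995, plus strand) has 10. The stretch before the other listed start of Meg3 (chr12:109545148-109545397), not shown, has 0.
Dlk1: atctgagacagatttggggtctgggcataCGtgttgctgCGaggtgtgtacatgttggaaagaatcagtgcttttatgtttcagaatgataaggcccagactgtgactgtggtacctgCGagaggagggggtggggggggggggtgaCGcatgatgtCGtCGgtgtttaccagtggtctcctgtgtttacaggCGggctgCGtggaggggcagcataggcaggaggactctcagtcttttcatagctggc
Meg3: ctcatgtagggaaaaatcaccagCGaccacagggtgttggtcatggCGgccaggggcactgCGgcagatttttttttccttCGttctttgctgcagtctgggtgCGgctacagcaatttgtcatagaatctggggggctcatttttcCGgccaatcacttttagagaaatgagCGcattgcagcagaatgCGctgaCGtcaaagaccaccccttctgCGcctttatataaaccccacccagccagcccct

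Dlk1 (ENSMUSG00000040856, chromosome 12, 109452823 to 109463336) encodes a membrane protein related to Notch ligands that holds back differentiation. It had 89.3, 325.9, 71.6 and 110.3 CPM. Wt1_flfl replicate 2 was far above the other 3 libraries, which lay between 71.6 and 110.3 CPM. The log2 fold change was -1.19 (SE 0.984) for Wt1_CKO against Wt1_flfl and 1.44 (SE 0.797) for replicate 2 against replicate 1, and edgeR's adjusted p was 1 and 0.0916. With each comparison also fitted for the other term, Dlk1 was called in both. The log2 fold changes were then -0.96 and 1.26 (edgeR adjusted p = 0.0268 and 1.785e-04), though no label links the same-numbered samples. Without Wt1_flfl replicate 2 the fold change with genotype in the fit without the other term was 0.03. Rtl1, a retrotransposon-derived gene of the placenta, had 3.61, 8.83, 2.02 and 3.19 CPM, from 58, 151, 36 and 55 counts. It shares 8.12% of its exon bases with genes on the other strand, and the strand of the reads is not given. Both Wt1_CKO libraries lay below both Wt1_flfl libraries, the lower of these only slightly above. Its log2 fold changes were -1.26 (SE 0.705) with genotype and 1.10 (SE 0.821) with replicate number, neither called by edgeR (adjusted p = 1 and 0.251).

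Dio3, which encodes the deiodinase that inactivates thyroid hormone, had 5.73, 11.8, 6.41 and 12.4 CPM. It followed the replicate number alone, with a log2 fold change of 0.995 (SE 0.0874) and an edgeR adjusted p of 0.0289, and its highest library was Wt1_CKO replicate 2. Among the non-coding RNAs, Meg3 had 699, 1355, 755 and 964 CPM. Its replicate 2 libraries were the higher ones in both genotypes, and its log2 fold changes were 0.67 (SE 0.252, edgeR adjusted p = 0.0556) with number and -0.26 (SE 0.509) with genotype. Rian had 383, 619, 360 and 452 CPM, with 0.53 (SE 0.230, edgeR adjusted p = 0.0907) and -0.30 (SE 0.383). Mirg had 13.9, 32.9, 10.5 and 22.6 CPM and passed with replicate number, at a log2 fold change of 1.19 (SE 0.340, edgeR adjusted p = 0.0268), while its fold change with genotype was -0.51 (SE 0.826). The ratio of Rian to Meg3 counts stayed between 0.456 and 0.548 in the 4 libraries, whereas that of Meg3 to Dlk1 counts was 7.83, 4.16, 10.6 and 8.74, lowest in Wt1_flfl replicate 2.

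Mirg carries 14 microRNA hairpins with 26 mature forms in RefSeq, and Rian 3 hairpins with 6. Meg3 carries 3 mature forms, miR-770-5p, miR-770-3p and miR-1906. Only 1 hairpin is listed for Meg3, although miR-1906 lies apart from the miR-770 forms. On the strand opposite to Rtl1 lie 6 hairpins with 11 mature forms, read from the maternal copy. Those of Mirg are shown because Mirg was called with replicate number, and the others as neighbours in the same cluster. Mature microRNAs were not measured in these libraries, and the RNA opposite to Rtl1 was not analysed here. In each sequence the seed, bases 2 to 8, which pairs with target messages, is in capitals. The first 2 lines are the only pair among the microRNAs of these imprinted hosts that share a seed.
miR-453: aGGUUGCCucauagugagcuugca
miR-496a-5p: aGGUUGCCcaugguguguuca
miR-410-3p: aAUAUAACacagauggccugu
miR-134-5p: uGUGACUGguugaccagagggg
miR-770-5p: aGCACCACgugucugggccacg
miR-370-3p: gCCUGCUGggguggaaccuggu
miR-127-3p: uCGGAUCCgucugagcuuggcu
miR-433-3p: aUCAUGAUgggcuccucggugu
Of these, miR-453, miR-496a-5p, miR-410-3p and miR-134-5p lie in Mirg, miR-770-5p in Meg3 and miR-370-3p in Rian. The remaining miR-127-3p and miR-433-3p lie opposite to Rtl1.

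The growth factor gene Igf2 and its neighbour H19 on chromosome 7 share enhancers and are read from opposite parental copies. Igf2 (ENSMUSG00000048583, chromosome 7, 142650766 to 142666816) had 42.8, 66.7, 37.9 and 58.5 CPM, with both replicate 2 libraries above both replicate 1 libraries. The log2 fold change with replicate number was 0.63 (SE 0.129), with an edgeR adjusted p of 0.0268. In the GENCODE vM21 annotation 64.6% of its exon bases are shared with other genes, Gm49394 and Igf2os, so its counts are uncertain. Only 1.71% are shared with genes on the other strand. H19, a non-coding RNA that hosts miR-675, had 67.9, 93.2, 56.3 and 71.0 CPM and a fold change of 0.40 (SE 0.238, edgeR adjusted p = 0.179). The ratio of Igf2 to H19 counts lay between 0.630 and 0.824. The receptor gene Igf2r, whose product takes up IGF2 for degradation, had 57.4, 90.1, 71.8 and 92.8 CPM. Igf2r was thus also higher in both replicate 2 libraries, by 0.50 (SE 0.163), with an edgeR adjusted p of 0.0628.

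One start of Igf2 is shown because it is the member called with replicate number whose upstream stretch overlaps no annotated exon. The stretch (chr7:142657497-142657746, minus strand) has 6 CpG, in capitals. Those before the other listed starts of Igf2 have 22, 10 and 1 CpG. The stretch before Igf2r (chr17:12769707-12769956, minus strand) has 27.
Igf2: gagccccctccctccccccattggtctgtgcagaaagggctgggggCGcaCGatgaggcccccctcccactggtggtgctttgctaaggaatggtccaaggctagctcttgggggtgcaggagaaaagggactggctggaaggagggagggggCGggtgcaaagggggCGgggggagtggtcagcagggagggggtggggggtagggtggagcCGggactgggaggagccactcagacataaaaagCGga
Igf2r: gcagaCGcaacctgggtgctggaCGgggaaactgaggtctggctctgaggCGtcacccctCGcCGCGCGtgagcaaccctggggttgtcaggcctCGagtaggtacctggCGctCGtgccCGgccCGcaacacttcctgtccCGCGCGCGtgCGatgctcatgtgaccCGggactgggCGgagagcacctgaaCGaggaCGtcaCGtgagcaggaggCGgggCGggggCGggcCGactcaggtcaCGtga

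In the Prader-Willi cluster on chromosome 7, Magel2 stood out in Wt1_flfl replicate 2, and the values of its neighbours spread less. Ndn, which encodes a growth suppressor of postmitotic neurons, had 642, 766, 569 and 587 CPM. Both Wt1_CKO libraries lay below both Wt1_flfl libraries, with a log2 fold change of -0.28 (SE 0.130), and with replicate number it was 0.16 (SE 0.211, edgeR adjusted p = 0.576). Its neighbour Magel2, a regulator of ubiquitination abundant in the hypothalamus, had 76.2, 195.5, 79.3 and 102.4 CPM. Wt1_flfl replicate 2 was far above the rest, and the ratio of Magel2 to Ndn counts was 0.255 there against 0.119 to 0.174 in the other 3 libraries. Its log2 fold changes were -0.58 (SE 0.704, edgeR adjusted p = 1) with genotype and 0.94 (SE 0.467, edgeR adjusted p = 0.0800) with number. Mkrn3, a brake on puberty, was level at 21.8, 20.3, 22.0 and 22.2 CPM. Snrpn, a splicing protein gene, had 46.6, 50.8, 40.5 and 43.6 CPM, lower in both Wt1_CKO libraries, with 34.1% of its exon bases shared with other genes, among them Snurf. Ube3a, the maternally expressed ubiquitin ligase of Angelman syndrome, had 71.1, 69.1, 88.3 and 71.0 CPM and was highest in Wt1_CKO replicate 1. It shares 27.3% of its exon bases with genes on the other strand such as Snhg14, and the strand of the reads is not given. Magel2 has no introns, and the stretch before its start (chr7:62376729-62376978, plus strand), with 7 CpG in capitals, is shown as that of the member of this cluster with the largest excess in Wt1_flfl replicate 2.
Magel2: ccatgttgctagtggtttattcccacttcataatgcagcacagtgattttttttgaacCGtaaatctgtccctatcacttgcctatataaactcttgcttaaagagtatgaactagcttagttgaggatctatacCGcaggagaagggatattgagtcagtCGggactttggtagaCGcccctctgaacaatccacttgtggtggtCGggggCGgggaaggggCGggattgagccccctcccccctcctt

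At Gnas, several starts share exons and differ in their parental copy, and the gene encodes the stimulatory G protein alpha subunit. It had 20.9, 62.9, 22.5 and 30.5 CPM. Wt1_flfl replicate 2 was again far above the others, and the log2 fold changes were -0.66 (SE 0.821, edgeR adjusted p = 1) with genotype and 1.11 (SE 0.524, edgeR adjusted p = 0.0765) with number. With genotype the direction turned to 0.34 without that library. Its exons share 22.0% of their bases with Nespas and Gm20721 on the other strand. Of its 4 RefSeq starts, the first (chr2:174284070-174284319, plus strand) has an upstream stretch free of annotated exons, with 14 CpG in capitals. It is shown for that reason only and is not given as the promoter of the G protein subunit. The stretch before the last start (chr2:174329756-174330005) has 29 CpG.
Gnas: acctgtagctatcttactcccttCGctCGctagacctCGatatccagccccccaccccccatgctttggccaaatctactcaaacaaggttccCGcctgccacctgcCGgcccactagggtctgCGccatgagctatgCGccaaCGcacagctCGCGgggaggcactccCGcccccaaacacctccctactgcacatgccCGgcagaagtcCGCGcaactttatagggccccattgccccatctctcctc

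The Peg10 and Peg3 clusters each held 1 member called with replicate number. Peg10 (ENSMUSG00000092035, chromosome 6, 4747306 to 4760517), derived from a retrotransposon and needed in the placenta, had 209.5, 413.9, 207.9 and 303.3 CPM. Both replicate 2 libraries lay above the replicate 1 libraries, which were nearly equal, with a log2 fold change of 0.78 (SE 0.224) and an edgeR adjusted p of 0.0264. Sgce, the sarcoglycan gene that starts beside it on the other strand, did not share this, with 37.8, 37.7, 31.5 and 31.4 CPM. Both of its Wt1_CKO libraries lay below both Wt1_flfl libraries, and edgeR's adjusted p was 1. Asb4, maternally expressed and known from hypothalamic feeding circuits, had 35.6, 45.8, 30.8 and 40.1 CPM and a fold change of 0.37 with number (SE 0.142, edgeR adjusted p = 0.155).

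Peg3 encodes a zinc finger protein and had 139, 260, 162 and 197 CPM, with a log2 fold change of 0.60 (SE 0.230) for replicate 2 and an edgeR adjusted p of 0.0584. Zim1, its maternally expressed zinc finger neighbour, had 4.11, 14.1, 6.02 and 10.5 CPM, from 66, 241, 107 and 180 counts. It was higher in both replicate 2 libraries by 1.27 (SE 0.343), with an edgeR adjusted p of 0.0338, which became 0.0572 without a filter on low counts. Usp29, a ubiquitin protease gene that shares the Peg3 promoter region, had 40.4, 59.7, 39.0 and 42.5 CPM. Only Wt1_flfl replicate 2 stood out for it, and its fold change with number was 0.37 (SE 0.246, edgeR adjusted p = 0.248).

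The cell cycle inhibitor gene Cdkn1c, expressed from the maternal copy, had 59.6, 100.8, 53.7 and 53.6 CPM. Its Wt1_CKO libraries were nearly equal and lay below both Wt1_flfl libraries, and 30.7% of its exon bases overlap Gm44732 on the other strand. The log2 fold change with genotype was -0.58 (SE 0.378), with an edgeR adjusted p of 1, and it was -0.15 between the replicate 1 libraries and -0.91 between the replicate 2 libraries. The paternal antisense RNA of its cluster, Kcnq1ot1, had 20.1, 20.6, 20.2 and 17.3 CPM. For Nnat, whose levels are given above, the log2 fold change with genotype was -0.31 (SE 0.166, edgeR adjusted p = 1), with -0.18 between the replicate 1 and -0.43 between the replicate 2 libraries. With number it was 0.21 (SE 0.231, edgeR adjusted p = 0.456). Nap1l5, a gene related to nucleosome assembly proteins, had 32.7, 43.5, 29.6 and 27.5 CPM and a fold change with genotype of -0.42 (SE 0.212, edgeR adjusted p = 1).

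At Grb10, an adaptor that dampens insulin and IGF signalling and is read from the paternal copy in neurons, the libraries held 346, 408, 408 and 403 CPM. Wt1_flfl replicate 1 was the lowest and the other 3 were alike, with log2 fold changes of 0.10 (SE 0.118) with genotype and 0.10 (SE 0.118) with number. The adjacent Ddc, which makes dopamine and serotonin, had 2.37, 8.01, 2.70 and 4.36 CPM, from 38, 137, 48 and 75 counts. Ddc was higher in both replicate 2 libraries, by 1.28 (SE 0.440, edgeR adjusted p = 0.0789), and its fold change with genotype was -0.56 (SE 0.918, edgeR adjusted p = 1), turning to 0.57 without Wt1_flfl replicate 2. Mest, an enzyme of the hydrolase fold, had 224, 302, 212 and 251 CPM and a fold change of 0.34 with number (SE 0.141, edgeR adjusted p = 0.133). Its partner Copg2, a coat protein of vesicles, had 84.3, 88.8, 90.8 and 89.8 CPM. The ends of Mest and Copg2 overlap on opposite strands, over 23.1% and 17.8% of their exon bases, so reads there cannot be told apart.

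The remaining 5 genes passed neither test. Plagl1, a zinc finger regulator of growth, had 150, 157, 172 and 110 CPM and was lowest in Wt1_CKO replicate 2, by -0.51 on the log2 scale against Wt1_flfl replicate 2. Peg13, a non-coding RNA within an intron of Trappc9, had 209, 247, 189 and 216 CPM, and Trappc9, of vesicle transport, had 70.9, 65.9, 61.3 and 62.9 CPM. Impact, a regulator of translation, and Zrsr1, related to splicing factors, stayed within 30.04 to 33.95 CPM and 8.94 to 10.6 CPM. None of these 5 had an unadjusted edgeR p under 0.05 in either comparison.

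Markers of the hypothalamus were also highest in Wt1_flfl replicate 2, while in Wt1_CKO replicate 2 they did not all rise. Of 9 such markers 6 were tested, and all 6 had their highest level in Wt1_flfl replicate 2, against 26.9% of all tested genes. Their summed level was 179.5, 508.7, 184.6 and 282.8 CPM, highest in Wt1_flfl replicate 2 and next in Wt1_CKO replicate 2. Nkx2-1, the factor that specifies the ventral hypothalamus, had 105, 270, 103 and 191 CPM, and was the 1 marker called with replicate number (log2 fold change 1.15, SE 0.248, edgeR adjusted p = 0.00873). Otp, a factor of neuroendocrine neurons, had 5.98, 84.0, 11.5 and 16.2 CPM, and Sim1, its partner in the paraventricular nucleus, had 1.31, 10.1, 2.02 and 3.25 CPM. Fezf1, a zinc finger factor, had 23.9, 67.7, 21.5 and 34.9 CPM. In Wt1_CKO replicate 2, Nkx2-1 made up most of the sum, Nhlh2 was at its lowest (41.2, 69.7, 45.2 and 35.3 CPM) and Pomc was near the replicate 1 libraries (2.06, 7.71, 1.74 and 1.92 CPM). Nr5a1, of the ventromedial nucleus, was counted 150 times in Wt1_flfl replicate 2 and 0 to 2 times elsewhere. For Six6 the replicate 2 libraries held 131 (Wt1_flfl) and 1 count (Wt1_CKO), and for Rax 23 and 0, and both genes were not analysed here in the replicate 1 libraries. No marker of this list was called with genotype. The part of hypothalamic tissue in the imprinted gene results was not tested, and in such bulk samples more cells of a type cannot be told apart from more RNA per cell.

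**Figure D4:**
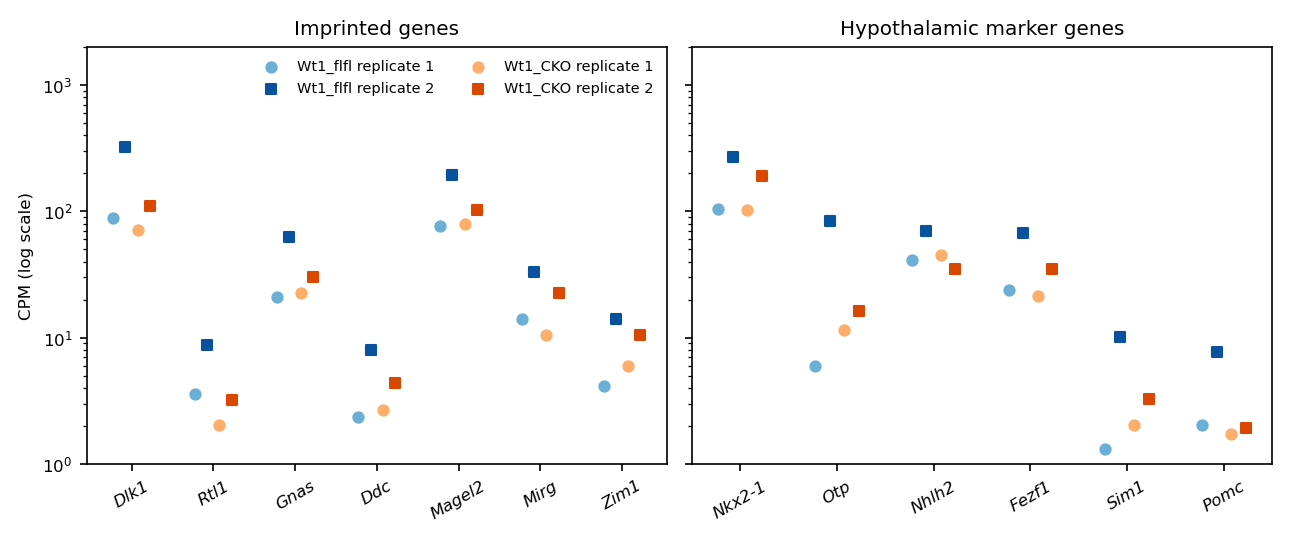
CPM in each library on a log axis, left for the 7 imprinted genes whose log2 CPM in Wt1_flfl replicate 2 exceeded the mean of the other 3 libraries by at least 1, right for the 6 tested hypothalamic markers. Circles are replicate 1 and squares replicate 2, blue is Wt1_flfl and orange Wt1_CKO. In both panels the dark blue square of Wt1_flfl replicate 2 is the highest point of every gene. On the left this follows largely from how the genes were chosen.

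Other cell types also differed between libraries. Red cell markers summed to 745, 1672, 681 and 1698 CPM, higher in both replicate 2 libraries. Of 8 tested 5 were called with replicate number, against 1.96% of all tested genes. Markers of meninges and mesenchyme, a tissue rich in Igf2 and H19, summed to 70.9, 115, 61.1 and 86.7 CPM, and 1 of 11 tested, Crabp2, was called, higher in replicate 2. Choroid plexus markers summed to 31.3, 55.1, 68.4 and 31.5 CPM, of which Ttr alone held 4, 213, 717 and 17 counts. Endothelial markers summed to 131 to 153 CPM, pericyte markers to 83.3 to 87.9 CPM and microglial markers to 31.1 to 37.4 CPM. Cartilage and bone markers summed to 140 to 164 CPM and muscle markers to 0.731 to 2.80 CPM. Of these 5 lists 0 were called in either comparison. Nearly all of the cartilage and bone sum was Col2a1, with 138, 163, 144 and 143 CPM, while the bone gene Sp7 held 4, 1, 3 and 3 counts. Of 10 neural progenitor markers, 2 were called higher with replicate number, and of 10 neuronal markers 0. The defining muscle genes Myod1 and Myog held 0 to 3 counts. The part of these cells in the results was not tested.

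Further genes of the same biology gave a comparison. Of 40 other imprinted genes and cluster neighbours 25 were tested. None was called with genotype (median log2 fold change -0.04), the smallest unadjusted p-values being those of Blcap, Commd1 and Zdbf2. With replicate number 1 was called higher and 1 lower, with a median of 0.03, beside 0.37 for the 34 genes. The gene called higher was Peg12, a paternally expressed neighbour of Magel2, with 26.4, 36.9, 24.7 and 38.9 CPM (0.57, SE 0.0594, edgeR adjusted p = 0.0428). The gene called lower was Snhg14, the long paternal transcript across Ube3a, with 83.9, 60.5, 90.1 and 62.6 CPM (-0.50, SE 0.0563, edgeR adjusted p = 0.0303). Rasgrf1, an exchange factor for Ras, was lower by -1.32 (SE 0.301) and missed the threshold at an edgeR adjusted p of 0.0548.

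Among factors that set or keep imprints, 22 of 25 were tested and none was called with genotype. Their smallest unadjusted p-values there belonged to Hells, Zfp445 and Eed, with log2 fold changes of 0.24, 0.25 and 0.23. With replicate number 1 was called, Tet3, an oxidase of methylcytosine, at 180, 250, 186 and 244 CPM (0.43, SE 0.0279, edgeR adjusted p = 0.0356). Dnmt3a, a de novo DNA methyltransferase gene (0.36), and Uhrf1, which acts with DNMT1 in keeping methylation (0.33), had edgeR adjusted p of 0.0634 and 0.0993. In the IGF2 pathway all 12 genes were tested and none was called with genotype, where Igfbp2 (-0.29), Irs1 (0.39) and Irs2 (-0.23) had the smallest unadjusted p-values. With replicate number 2 of the 12 were called higher, against 1.96% of all tested genes called in either direction. Igf2bp1, a binding protein of Igf2 messenger RNA, had 102, 153, 101 and 169 CPM (0.66, SE 0.0708, edgeR adjusted p = 0.0127). Igfbp5, a secreted binding protein of IGFs, had 98.0, 245, 102 and 161 CPM (1.02, SE 0.305, edgeR adjusted p = 0.0222), with its highest level in Wt1_flfl replicate 2. Igf2bp2 had a fold change of 0.20 and an edgeR adjusted p of 0.253.

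The stretches before the starts, each 250 bases long, were compared with those of all genes. They came from 42 RefSeq starts of 27 of the 35 genes, Phlda2 among them, against 32851 starts of 27025 genes. The median number of CpG was 10 for the imprinted genes and 6 for all, and the median share of G and C was 55.4% and 52.4%. The TATA box letters TATAAA were found on either strand in 10 of 42 (23.8%), against 12.4% of all. Starts of the same gene were counted separately in both sets, so the 42 are not independent. For example, the Gnas stretches at chr2:174327499-174327748 and chr2:174327518-174327767 overlap, and each counts as a match. CCAAT, read on both strands, was found in 15 (35.7%) against 33.8%. GCGGGGGCG, the letters bound by EGR1 and also by WT1, were found in 1 (2.38%), that of Igf2r, against 2.57%. GCGTGGGAG, another form bound by WT1, was found in 0, against 0.405%. The motifs GCGGGGGCG and GCGTGGGAG both begin with GCG, and a match or its absence describes these letters in this window only. Cdkn1c, H19, Impact, Peg10, Peg13, Rtl1, Sgce and Trappc9 had no entry.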

How the data were processed

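Poly(A) RNA of 4 mouse brain samples was sequenced. The submitters' processing notes name TopHat2 (2.0.12), Bowtie2 (2.2.3), HTSeq (0.6.0) and mm9. Positions in the tables are those of GRCm38, since 30 of 34 members lay at the same position in GENCODE vM21. Per the file headers, the authors deposited whole-number counts per gene in 1 table per pair of same-numbered samples. Their log2 fold changes and adjusted p-values in the deposited tables set single libraries against each other, by a method that the sources used here do not give, and served only for the marked genes.

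Genes present in both tables were filtered with filterByExpr (minimum count 10), scaled by TMM and tested with edgeR 4.0.16 in R 4.3.3 by quasi-likelihood F tests, with Benjamini-Hochberg adjustment over all 15933 tested genes and a threshold of 0.05. Genotype and replicate number were each tested as the only term. The test was checked on simulated counts. An SE comes from the SDs of n = 2 libraries per group on log2 CPM with a prior count of 2. It is imprecise and is not the spread edgeR uses. Fold changes between 2 libraries are differences on that scale. The common biological coefficient of variation was 0.171. All members are named, and fold changes with SE are given for those with an unadjusted p under 0.05 or a log2 fold change of 0.5 or more in size in a comparison, and for the 5 highest by CPM. Of further lists up to 3 genes by the smallest p are named. The members, lists and rules were chosen with earlier results of these data known. The alternatives tried were a block for replicate number, leaving each library out, DESeq2 1.42.0 and its size factors, no TMM, no filter, at least 1 CPM in every library, and genes of either table. Sequences came from RefSeq tables on GRCm38.p6, and exon lengths from GENCODE vM21.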

Additional observations from a re-analysis of the deposited data

How the results depend on the processing

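DESeq2's size factors, no TMM scaling and genes of either table kept the counts of members called. With replicate block, each comparison also held the other term. The genotype comparison then called 42 of 15933 genes and 1 of 34 members, Dlk1 (-0.96, edgeR adjusted p = 0.0268). The number comparison called 1138 of 15933 genes and 16 of 34 members. Deviations of same-numbered libraries from their group means had r = 0.281 across 15933 genes, but with 2 pairs and no label that links them they share only a number. DESeq2 called 5 genes with genotype, and 578 genes and 9 members with number. Without a filter on low counts 197 of 19500 genes and 4 members were called with number, and with at least 1 CPM in every library 395 of 13698 genes and 8 members. Leaving out 1 library, genes called ranged from 3 to 73 with genotype and from 71 to 940 with number, and members called from 0 to 5 and from 0 to 19. The median of the members ranged from -0.43 to 0.02 with genotype and from 0.15 to 0.48 with number. Some log2 fold changes turned. With genotype they ranged from -0.66 to 0.30 for Meg3, from -0.61 to 0.085 for Rian, from -1.84 to 0.026 for Dlk1, from -1.11 to 0.25 for Magel2, from -1.25 to 0.34 for Gnas, from -1.16 to 0.24 for Mirg and from -1.18 to 0.57 for Ddc. Each of these 7 turned only without Wt1_flfl replicate 2. Grb10 ranged from -0.0073 to 0.23, turning without Wt1_flfl replicate 1. With number, Nnat ranged from -0.017 to 0.41 and Ndn from -0.045 to 0.34, turning without Wt1_flfl replicate 2, and Grb10 from -0.010 to 0.23, turning without Wt1_flfl replicate 1. The cause of these changes was not tested. With 2 libraries per group, a group reduced to 1 library is assumed to vary like the other. Low genes such as Rtl1 and Ddc rest on under 200 counts per library.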
